A study of Mus musculus with 12 samples.

Results

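Gata4, Maf, Tfec, Meis2 and Tcf7l2 are transcription factors tied to the identity of liver sinusoidal endothelial cells, the fenestrated endothelium that lines the capillaries of the liver. They were chosen by name, with earlier results of these data known. Each had 1 probe set, and together they are 5 of the 25428 probe sets on the array. Expression was measured on 12 Affymetrix arrays of mouse sinusoidal endothelial cells, 6 from control mice and 6 from mice whose hepatic endothelium overexpressed the Notch intracellular domain (NICD-OE-HEC). The NICD-OE-HEC mice carried Clec4g-Cre(tg/wt), in which regulatory sequence of the sinusoidal lectin gene Clec4g drives Cre, together with Rosa26-N1ICD-IRES-GFP, an allele that yields the intracellular domain of Notch1 and a GFP reporter. The controls are labelled Ctrl, and their full genotype, like the age of the mice, is not stated in the labels. Each sample pooled 3 livers, and endothelial cells were taken from it by magnetic beads that bind CD146, a surface protein encoded by Mcam. The share of cells in which the Notch allele was active is not analysed here.

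Sinusoidal endothelium keeps its open, endocytic form through a set of transcription factors. GATA4, a zinc finger protein, is required for sinusoidal rather than continuous capillaries to form in the liver. c-MAF, a leucine zipper protein encoded by Maf, and MEIS2, a homeobox protein, raise sinusoidal genes together with GATA4 when supplied to cultured endothelium. TFEC is the least studied member of the MiT/TFE family, whose relatives control lysosomes and pigment cells, and TCF7L2 binds DNA for beta-catenin at the end of the Wnt pathway. The comparison asks how these genes stood when Notch signalling, which favours arterial traits in endothelium, was switched on in the same cells.

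Values are log2 expression from RMA, in which 1 unit is a doubling, and the median of each array was 3.67. Every factor lay above that median in both groups. The arrays within a group correlated at 0.976 to 0.992. Control 2 and NICD-OE-HEC 4 stood apart from the others along the second principal component, which held 16.4% of the variance. Without those arrays the same 4 of the 5 factors were called lower. Hey1, a repressor induced by Notch, rose from 4.42 ± 0.38 to 7.11 ± 0.23 (SD, n = 6 each), while Notch1 differed by 0.19 (SE 0.14, limma adjusted p = 0.486), and which part of Notch1 its probe set reads is not known here. Endothelial genes were strongly expressed on all arrays, with Cdh5, which encodes VE-cadherin, at 11.50 ± 0.09 and 11.51 ± 0.11. Cdh5 was level, but of 10 genes shared by all endothelium 1 rose and 3 fell, as given below. Mcam, whose product the beads bind, rose by 0.92 (SE 0.12, limma adjusted p = 1.07e-04), and its part in the other results was not tested.

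Of the 5 factors, 4 fell in NICD-OE-HEC cells and Tcf7l2 gave no call. A call is an adjusted p under 0.05 in limma over all 25428 probe sets, of which 5.59% were called lower and 4.89% higher. Maf fell the furthest in log2 units, by 0.78, followed by Tfec with a fall of 0.74, Gata4 with 0.65 and Meis2 with 0.46. For these 4 genes every NICD-OE-HEC array lay below every control array, a separation in that direction that 3.7% of all probe sets showed. The median difference of the 5 was -0.65 against -0.01 for all probe sets. Because the 5 were chosen with earlier results of these data known, these contrasts with all probe sets carry no test. In bulk RNA, fewer cells of a type and less RNA per cell cannot be told apart.

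**Figure D1:**
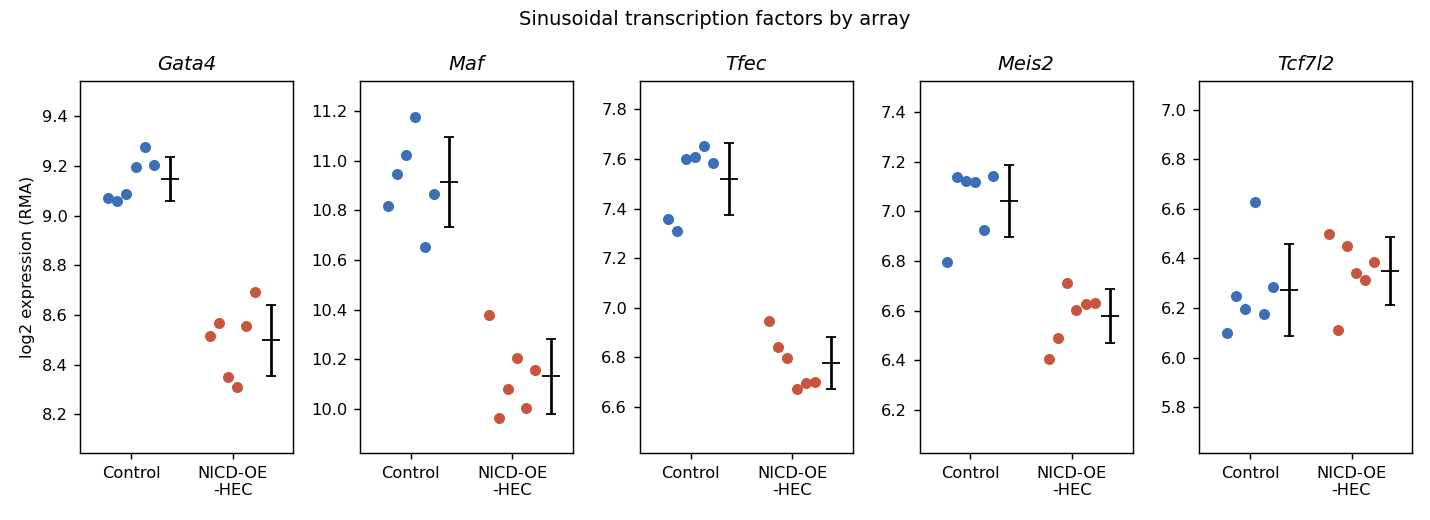
Log2 expression (RMA) of the 5 factors on each array, with blue points for the 6 Control arrays and red points for the 6 NICD-OE-HEC arrays in replicate order, and black bars for the mean ± SD. The vertical axes span the same log2 range but start at different levels. The groups are separate for Gata4, Maf, Tfec and Meis2, by only 0.09 between the closest arrays for Meis2, and overlap for Tcf7l2.

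Gata4 (Entrez 14463, chromosome 14) opens many of the enhancers on which sinusoidal endothelium depends. Its log2 values on control arrays 1 to 6 were 9.07, 9.06, 9.09, 9.20, 9.28 and 9.20. On NICD-OE-HEC arrays 1 to 6 they were 8.51, 8.57, 8.35, 8.31, 8.55 and 8.69. The control arrays lay close together, and the highest NICD-OE-HEC array was still 0.37 below the lowest control. The means were 9.15 ± 0.09 and 8.50 ± 0.14 (SD, n = 6 each), a difference of -0.65 (SE 0.09, limma adjusted p = 1.18e-04). On the linear scale this was 1.57-fold lower (95% interval 1.38 to 1.79), or -36.3%. Only 2.15% of probe sets had a lower difference.

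Maf (Entrez 17132, chromosome 8) encodes a large MAF protein with a role in macrophages and T cells as well as in endothelium. On control arrays it read 10.82, 10.95, 11.02, 11.18, 10.65 and 10.87. The NICD-OE-HEC arrays read 10.38, 9.96, 10.08, 10.21, 10.004 and 10.16. NICD-OE-HEC 1 was the highest of its group and control 5 the lowest of the controls, and these arrays were 0.28 apart. The mean went from 10.91 ± 0.18 to 10.13 ± 0.15, a difference of -0.78 (SE 0.10, limma adjusted p = 1.02e-04) and 1.72-fold (95% interval 1.48 to 2.00) on the linear scale. With the mean of the early-response genes as a covariate the difference was -0.46 (SE 0.16, adjusted p = 0.200), and with the mean of the neutrophil markers it was -0.75 (SE 0.19, adjusted p = 0.0542).

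Tfec (Entrez 21426, chromosome 6) is, like Maf, also a gene of macrophages. Its control values were 7.36, 7.31, 7.60, 7.61, 7.65 and 7.58, with controls 1 and 2 below the other 4. In NICD-OE-HEC it stood at 6.95, 6.84, 6.80, 6.67, 6.70 and 6.70. The groups were 0.37 apart at their nearest arrays. The means of 7.52 ± 0.15 and 6.78 ± 0.11 differed by -0.74 (SE 0.09, limma adjusted p = 4.68e-05), 1.67-fold on the linear scale (95% interval 1.46 to 1.91). It had the lowest adjusted p of the 5, and kept its call with each marker mean tried as a covariate.

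Meis2 (Entrez 17536, chromosome 2) encodes a homeobox protein that binds DNA with PBX partners. The control arrays gave 6.80, 7.14, 7.12, 7.12, 6.93 and 7.14, and the NICD-OE-HEC arrays 6.41, 6.49, 6.71, 6.60, 6.63 and 6.63. Control 1 and NICD-OE-HEC 3 came within 0.09 of each other, the narrowest gap among the 4 genes that fell. The means were 7.04 ± 0.15 and 6.58 ± 0.11, a difference of -0.46 (SE 0.09, limma adjusted p = 0.00293), or 1.38-fold (95% interval 1.21 to 1.58). Its call was lost with the hepatocyte marker mean as a covariate (-0.34, adjusted p = 0.0625), with the neutrophil mean (-0.29, SE 0.16, adjusted p = 0.476) and with the early-response mean (-0.50, SE 0.17, adjusted p = 0.177).

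Tcf7l2 (Entrez 21416, chromosome 19) showed no call in either direction. The control values were 6.10, 6.25, 6.20, 6.63, 6.18 and 6.29, and the NICD-OE-HEC values 6.50, 6.11, 6.45, 6.34, 6.31 and 6.39. Control 4 stood above every other array, and the groups overlapped. The means of 6.27 ± 0.18 and 6.35 ± 0.14 differed by 0.08 (SE 0.10, 95% interval -0.14 to 0.29, limma adjusted p = 0.756). Without control 4 the difference was 0.15 (adjusted p = 0.425). The interval does not reach the fall of any of the other 4 genes.

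The falls of the 4 genes were each larger than the change of Tcf7l2. Taking the log2 difference between a pair of factors on each array, and comparing it between the groups with a two-sided exact permutation of the array labels, all 4 pairs with Tcf7l2 gave p = 0.00216, the smallest the arrays allow (adjusted p = 0.00541 over 10 pairs). Gata4, Maf and Tfec could not be ordered: Gata4 against Maf differed by 0.13 (SE 0.13, adjusted p = 0.363), Gata4 against Tfec by 0.09 (SE 0.08, adjusted p = 0.363) and Maf against Tfec by -0.04 (SE 0.11, adjusted p = 0.714), all by the exact permutation test. Meis2 changed less than Maf by 0.32 (exact permutation p = 0.0195, adjusted p = 0.0390) and less than Tfec by 0.28 (exact permutation p = 0.0260, adjusted p = 0.0433). Meis2 was not separable from Gata4, with a difference of -0.19 between them (SE 0.11, exact permutation, adjusted p = 0.176). The orders against Maf and Tfec were thin. The order of Maf and Meis2 was kept in 5 of the 12 tests with an array left out and lost without control 1, 3 or 4 or NICD-OE-HEC 2, 3, 5 or 6, with adjusted p up to 0.0779. That of Tfec and Meis2 was kept in 2 of 12, without control 2 or NICD-OE-HEC 1, with adjusted p up to 0.123.

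Whether the factors followed each other from array to array within a group could not be settled with 6 arrays. Over 10 pairs in each group, 20 relations of 6 arrays, Pearson's r ran from -0.72 to 0.79 and was positive in 14, and 0 had an exact permutation p under 0.05 for r or for Spearman's rho. The highest r was for Gata4 with Tfec in controls, with r = 0.79 (n = 6, exact permutation p = 0.0625, adjusted p = 0.583) and rho = 0.83 (exact permutation p = 0.0583, adjusted p = 0.875), and r = 0.64 without the 2 arrays farthest from the Gata4 median. In NICD-OE-HEC the same pair gave r = 0.05. Maf with Tcf7l2 gave r = 0.75 in controls (exact permutation p = 0.100) and 0.74 in NICD-OE-HEC (exact permutation p = 0.0903), both with an adjusted p of 0.583. Without the 2 arrays farthest from the Maf median these were 0.31 and 0.10.

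The promoter sequences of the factors are shown because Tfec and Meis2 fell and Tcf7l2 did not. The RefSeq promoter table of GRCm38.p6 matched 3 of the 5 factors, with 4 windows of 250 bases before to 50 after a start, since Tcf7l2 has more than 1 start. Gata4 and Maf are named only. Capitals mark every match, on either strand, to the letters searched: TGGGAA for RBPJ, the DNA-binding partner of the Notch intracellular domain; CACGTG and CACGCG for HES and HEY repressors, of which CACGTG is also a site of MiT/TFE proteins; AGATAA and TGATAA for GATA factors; TGCTGA for MAF; CTTTGAT for TCF/LEF; TGACAG for MEIS; and CATGTG for MiT/TFE. Each is printed 5′ to 3′ on the strand of its gene.
Tfec, chr6:16898392-16898691, minus strand: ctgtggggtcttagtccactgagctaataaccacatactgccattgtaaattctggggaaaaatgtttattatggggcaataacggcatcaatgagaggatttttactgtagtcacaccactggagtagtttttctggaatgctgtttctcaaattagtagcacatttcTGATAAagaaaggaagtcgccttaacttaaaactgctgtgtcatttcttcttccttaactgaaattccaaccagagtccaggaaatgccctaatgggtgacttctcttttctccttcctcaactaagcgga
Meis2, chr2:116064570-116064869, minus strand: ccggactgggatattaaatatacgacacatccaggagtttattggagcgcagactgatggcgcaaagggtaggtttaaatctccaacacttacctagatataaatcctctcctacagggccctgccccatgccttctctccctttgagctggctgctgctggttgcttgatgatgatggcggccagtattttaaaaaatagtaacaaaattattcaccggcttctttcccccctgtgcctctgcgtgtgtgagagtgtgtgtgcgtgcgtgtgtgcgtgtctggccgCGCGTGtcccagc
Tcf7l2 upstream start, chr19:55741560-55741859, plus strand: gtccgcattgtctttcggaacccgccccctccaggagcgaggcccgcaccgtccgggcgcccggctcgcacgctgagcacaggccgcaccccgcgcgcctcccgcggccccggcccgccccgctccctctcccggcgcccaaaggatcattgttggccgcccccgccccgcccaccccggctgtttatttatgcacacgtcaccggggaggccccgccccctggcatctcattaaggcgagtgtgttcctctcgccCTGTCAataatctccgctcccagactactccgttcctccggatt
Tcf7l2 downstream start, chr19:55895071-55895370, plus strand: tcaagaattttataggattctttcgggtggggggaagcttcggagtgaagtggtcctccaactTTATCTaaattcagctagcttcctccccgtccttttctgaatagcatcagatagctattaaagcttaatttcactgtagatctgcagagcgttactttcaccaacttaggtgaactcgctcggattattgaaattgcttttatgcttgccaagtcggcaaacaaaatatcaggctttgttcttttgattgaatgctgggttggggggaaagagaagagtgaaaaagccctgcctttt

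Each window held a match to letters searched, given here with the share of all windows that held them. Tfec had the GATA letters TGATAA, at position -81 from the start, as did 9.05% of all 32851 promoter windows in the table. Meis2 had the HES/HEY letters CACGCG on the opposite strand, where they read CGCGTG, at position 38 after the start, and 9.27% of windows held them. The upstream window of Tcf7l2 had the MEIS letters TGACAG, read as CTGTCA, at position 7 after the start (19.2% of windows), and the downstream window had AGATAA, read as TTATCT, at position -187 (11.2%). The RBPJ letters TGGGAA occur in 25.6% of windows and in 0 of these 4. A match is a description of letters and not a measured site.

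Most relatives of the factors gave no call in either direction, as was true of all probe sets, of which 10.5% were called. GATA factors and their cofactors numbered 16 with Gata4, of which 2 rose, 2 fell and 12 gave no call, with a median of -0.04. Gata6, the relative of Gata4 with the closest known roles in heart and gut development, rose from 4.62 to 5.69 (difference 1.07, SE 0.15, limma adjusted p = 1.69e-04), with no overlap between the groups. Its call, and that of Zfpm1, was lost with the neutrophil mean or the early-response mean as a covariate. Gata2, a factor of blood and general endothelium, was 6.54 and 6.68 without a call (0.14, adjusted p = 0.450). Zfpm1, which encodes the GATA cofactor FOG1, fell by 0.83 (SE 0.17, adjusted p = 0.00458) on groups that overlapped, and Tcf3, an E protein found in complexes with GATA factors, rose by 0.37 (SE 0.09, adjusted p = 0.0102).

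**Figure D2:**
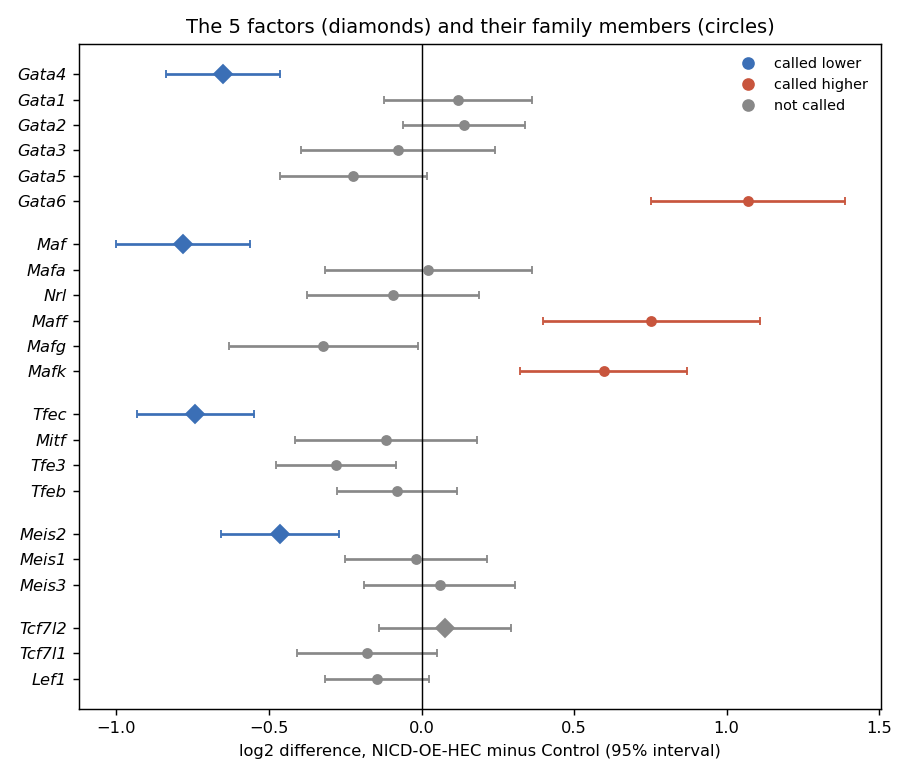
Log2 difference (NICD-OE-HEC minus Control) with its 95% interval for the 5 factors (diamonds) and 17 members of their protein families (circles), coloured by whether limma called them lower (blue), higher (red) or neither (grey). The 4 blue diamonds lie between -0.78 and -0.46, and the only red points are Gata6, Maff and Mafk.

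Among MAF proteins and the leucine zipper proteins that pair with them, 2 of 12 rose and 2 fell, with a median of 0.02. The small MAF genes Maff and Mafk, whose proteins bind like c-MAF but lack an activation domain, rose by 0.75 (SE 0.17, limma adjusted p = 0.00761) and 0.60 (SE 0.13, adjusted p = 0.00619), while the third small MAF, Mafg, gave -0.32 without a call (adjusted p = 0.208). Bach1, a repressor that dimerises with small MAF proteins, fell by 0.43 (SE 0.09, adjusted p = 0.00502). The calls of Maff, Mafk and Bach1 were lost with the mean of the stellate, neutrophil or early-response list as a covariate, and Tcf3 lost its call with the same 3. Nfe2l2, the partner that drives antioxidant genes, differed by 0.12 without a call.

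Tfec was the only called gene of its family of 4. Tfe3, a lysosomal regulator, differed by -0.28 (SE 0.09, limma adjusted p = 0.0706) and was called lower without control 1 or NICD-OE-HEC 3, and when the dimmest 50% of probe sets were left out. Mitf, the melanocyte factor, and Tfeb, the main activator of lysosomal genes, differed by -0.12 (adjusted p = 0.723) and -0.08 (adjusted p = 0.717). The fall of Tfec exceeded the change of each of these relatives in the exact permutation test of the paired values given below.

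In the homeobox list, which holds MEIS, PBX, PREP and TGIF genes, Meis2 was the single gene of 10 that fell. Tgif1, a repressor that can compete with MEIS proteins for DNA, was the single gene that rose, from 4.95 to 5.63 (difference 0.68, SE 0.10, limma adjusted p = 3.34e-04). With the early-response mean in the fit it was not called, and nor was Tle3 of the next list. Meis1, the nearest relative of Meis2, stood at 7.19 and 7.17 (difference -0.02, SE 0.11, adjusted p = 0.955), and the list median was 0.05.

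TCF/LEF factors with their coactivators and corepressors gave 2 rises and 1 fall among 13. Tle3, a Groucho corepressor, rose by 0.71 (SE 0.09, limma adjusted p = 1.17e-04), and its relative Tle4 fell by 0.39 (adjusted p = 0.0208), a call lost without control 4 or NICD-OE-HEC 2 and with the replicate number as a block. Ctnnb1, which encodes beta-catenin, rose by 0.31 (adjusted p = 0.0445), a call kept in 2 of 12 fits with an array left out, those without NICD-OE-HEC 4 or 5, and lost with the same block (adjusted p = 0.0713). Tcf7l1 differed by -0.18 (adjusted p = 0.377). Of 12 genes commonly read as Wnt output, 1 rose, 1 fell and 10 gave no call. Of the 12, 4 lay below the array median in both groups (Lgr5, Notum, Tnfrsf19 and Wif1), where a fall could hardly show. Dkk2, a secreted Wnt antagonist, rose by 1.82 from 3.30, a level below the array median, and Nkd1, a feedback inhibitor of the pathway, fell by 1.74 (SE 0.17, adjusted p = 6.55e-06). Axin2, the most general Wnt target, was near the array median at 4.09 and 4.15 and differed by 0.06 (adjusted p = 0.801).

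Whether a factor changed differently from its own relatives was tested on 17 pairs chosen after their values were seen, again with the exact permutation test and adjustment over the 17. The difference passed for 15 pairs, each of which also passed in 12 of 12 tests with an array left out. Gata4 differed from each of 5 GATA genes, most from Gata6 (-1.72, SE 0.15, adjusted p = 0.00526) and least from Gata5 (-0.43, SE 0.12, adjusted p = 0.0110). Tfec differed from Mitf by -0.62, from Tfe3 by -0.46 and from Tfeb by -0.66, and Meis2 from Meis1 by -0.44 and from Meis3 by -0.52 (adjusted p from 0.00526 to 0.0147, exact permutation). Maf differed from Mafa, Nrl, Maff and Mafk but not past the threshold from Mafg (-0.46, SE 0.21, adjusted p = 0.0506, passing without control 1 or control 5). Tcf7l2 was relatively higher than Tcf7l1 by 0.26 (adjusted p = 0.0134) and not past the threshold against Lef1 (0.22, adjusted p = 0.0714), which lay below the array median in both groups and passed without control 4 or NICD-OE-HEC 2. Gata1 and Gata5 also lay below that median, where signal and background run together. Meis3 (3.91 and 3.97), Nrl (3.97 and 3.88) and Gata3 (4.19 and 4.12) were near it, where a fall could hardly show.

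Genes of the endothelial state that these factors are known for moved over the same arrays. Their lists were chosen with earlier results of these data known, so the counts are a description. Of all probe sets, 5.59% were called lower and 4.89% higher. Of 24 sinusoidal genes 20 fell and 1 rose, with a median of -0.81. The differences were -3.28 for Wnt2, a ligand that supports hepatocytes, -2.64 for the semaphorin receptor gene Plxnc1, -2.63 for the stem cell factor receptor gene Kit and -1.72 for the lectin gene Cd209b, each larger in log2 units than that of any of the 5 factors. Clec4g, whose regulatory sequence drives the Cre, fell by 0.81 (SE 0.10, limma adjusted p = 7.61e-05). The hyaluronan receptor gene Lyve1 was the gene that rose (0.83). Of 21 genes of continuous endothelium 15 rose, 2 fell and 4 gave no call, with a median of 1.20. The rises were led by Esm1, a proteoglycan of sprouting tips, which rose by 5.11. The genes that fell were Cldn5 (-1.24, limma adjusted p = 6.09e-05), with no overlap between the groups, and Cav2 (-0.48, limma adjusted p = 0.0236). In a fit that also held the early-response mean, 9 sinusoidal genes were called lower and 9 continuous genes higher, and Clec4g was not called.

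Genes shared by all endothelium were not level between the groups. Their mean on an array lay between 10.31 and 10.52 in controls and between 10.16 and 10.39 in NICD-OE-HEC. Of 10 such genes 1 rose and 3 fell, against 10.5% of all probe sets called in either direction, with a median of -0.10. The 3 that fell were the receptor genes Kdr (-0.60) and Tek (-0.59) and Egfl7 (-0.36), a secreted endothelial protein gene whose call was kept in 3 of 12 fits with an array left out, those without control 4 or NICD-OE-HEC 2 or 5. Pecam1 rose by 0.33, a call kept in 6 of 12 and lost without control 1, 3 or 6 or NICD-OE-HEC 3, 4 or 5. Erg, an endothelial transcription factor, differed by 0.03 without a call.

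**Figure D3:**
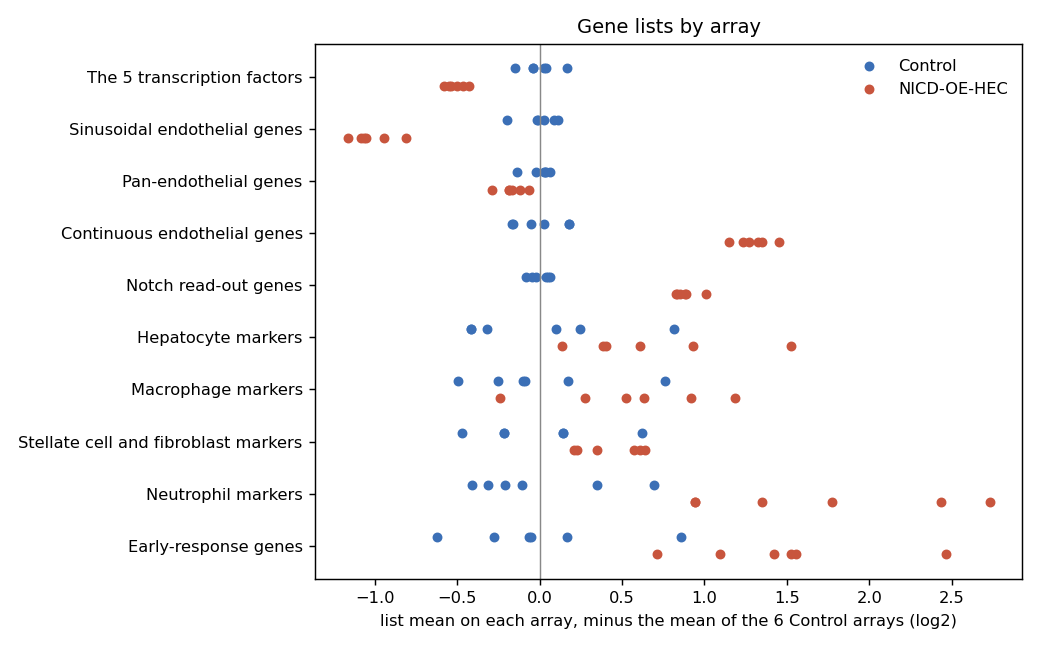
Mean log2 value of each gene list on each array, after subtracting the mean of the 6 Control arrays, for Control (blue) and NICD-OE-HEC (red). The 5 factors and the sinusoidal genes lie to the left of zero in NICD-OE-HEC, pan-endothelial genes near it, and the continuous endothelial, Notch, neutrophil and early-response lists to the right.

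Markers of other cells that share the factors were examined because Maf and Tfec are also expressed in macrophages, Gata4 in stellate cells and Tcf7l2 in hepatocytes. Of 11 macrophage markers 1 rose (Marco, 1.49) and 0 fell, against 10.5% of all probe sets called in either direction. Their mean ran from 7.68 to 8.93 on control arrays and from 7.93 to 9.36 on NICD-OE-HEC arrays. With the replicate number as a block 5 macrophage markers were called higher. With the mean of these markers as a covariate the differences were -0.82 for Maf (adjusted p = 6.65e-04) and -0.74 for Tfec (adjusted p = 6.10e-04). Of 15 stellate and fibroblast markers 5 rose, led by Col1a1 (2.49) and Col3a1 (2.11), and 1 fell. The gene that fell was Lrat (-0.75), the retinol acyltransferase gene that marks quiescent stellate cells. The stellate mean ran from 4.75 to 5.84 and from 5.43 to 5.86, and with it as a covariate Gata4 differed by -0.74 (adjusted p = 6.13e-04). That mean rose with the collagen genes while Lrat fell, so the fit cannot adjust for a loss of quiescent stellate cells. Their part in the fall of Gata4 was not tested. Hepatocyte markers gave 5 rises and 0 falls among 12, with means of 6.02 to 7.25 in controls and 6.57 to 7.96 in NICD-OE-HEC. With the replicate number as a block 8 were called higher and 2 lower. With the hepatocyte mean as a covariate the difference of Tcf7l2 was 0.06 (SE 0.13, adjusted p = 0.884). The part of macrophages and hepatocytes in the differences of the factors was not tested beyond these fits.

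Among the non-endothelial lists, the largest differences in mean log2 level were those of neutrophil markers (1.70) and early-response genes (1.46), a class that dissociating a tissue can switch on. The group means per array did not overlap for neutrophil and cholangiocyte markers, and overlapped for early-response genes. Of 11 neutrophil markers 7 rose and 0 fell, with means of 3.26 to 4.36 in controls and 4.61 to 6.41 in NICD-OE-HEC. Ngp (3.18) and Retnlg (3.13), granule and secreted protein genes of neutrophils, led the list, while Ly6g, Mpo and Elane were below the array median in both groups. Of 12 early-response genes 10 rose and 0 fell, led by Egr1 (2.23), with means of 6.66 to 8.13 and 7.99 to 9.74. Because these means rise with the group, a fit that holds both has larger errors: the SE of Gata4 went from 0.09 to 0.16 with either list. Gata4 kept its call there (-0.68, adjusted p = 0.0395 with the neutrophil mean; -0.70, adjusted p = 0.0327 with the early-response mean), as did Tfec (-0.76, adjusted p = 0.0238; -0.69, adjusted p = 0.0407), so that 2 of the 5 factors were called with each covariate. Of all probe sets, 424 were called lower with the neutrophil mean and 279 with the early-response mean, against 1422 with neither. The part these lists play in the falls of Maf and Meis2 was not tested beyond these fits. T cell markers gave 0 calls among 8 in limma, 6 of them below the array median in both groups, and B cell markers 0 among 5, with 3 below it. All 5 cholangiocyte markers measured rose, led by Sox9 (1.12), from array means of 3.72 to 4.12 in controls to 4.38 to 4.94, and 0 of 5 mesothelial markers were called.

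**Figure D4:**
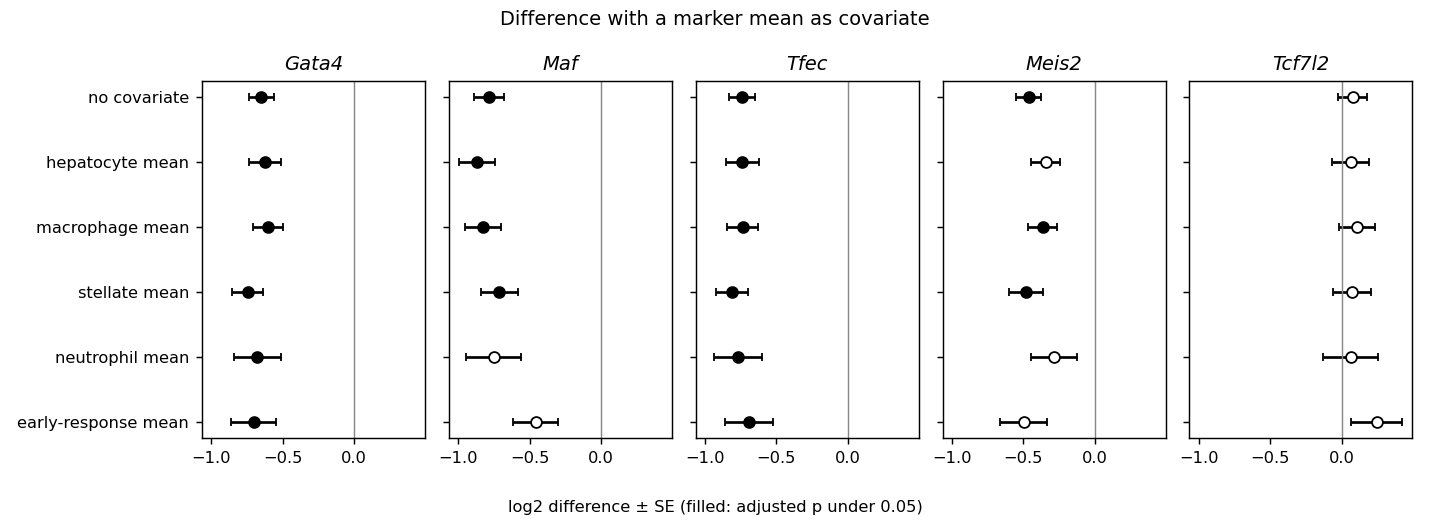
Log2 difference ± SE of each factor without a covariate and with the array mean of 1 of 5 marker lists as a covariate. Filled points have an adjusted p under 0.05. Gata4 and Tfec are filled in every row, Maf is open with the neutrophil and early-response means, Meis2 is open with those and with the hepatocyte mean, and Tcf7l2 is open throughout.

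The genes whose pattern over the 12 arrays was most like that of each factor were found by the root mean square distance between log2 values, each gene centred on its own mean, among 11151 named probe sets at or above the array median in both groups. For Gata4 they were Capn5, a calpain protease gene (distance 0.09), Mapre3, which encodes a microtubule end-binding protein (0.11), and Sh3rf1, a ubiquitin ligase gene (0.11), against a median distance of 0.39. Maf was nearest to Lamp2, a lysosomal membrane protein gene (0.09), Ap2a2, a subunit gene of the clathrin adaptor AP-2 (0.11), and Chst15, a sulfotransferase gene (0.12), with a median of 0.46. Tfec was nearest to Numb, which encodes an inhibitor of Notch (0.08), Bahcc1 (0.09) and Nrp1, a VEGF co-receptor gene (0.09), with a median of 0.43. Meis2 was nearest to Fam124a (0.08), Rogdi (0.08) and Wfs1, an endoplasmic reticulum membrane protein gene (0.09), with a median of 0.33. All 12 of these genes were called lower, as a distance to a gene that fell would favour. Tcf7l2 was nearest to Mga (0.08), Ipo11, an importin gene (0.09), and Taf1, a gene of the general transcription machinery (0.09), none of which was called. The arrays were normalised together, and these distances carry no test.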

How the data were processed

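The authors deposited log2 expression values made with RMA, per the submitters' processing notes, as 1 summary per Entrez gene for each of 12 arrays. Neither the chip definition nor the build is given in the sources used here. The arrays have nearly the same quantiles, with medians from 3.6743 to 3.6746, so a change of most genes in the same direction would not show. The values carry no detection calls. Gene symbols came from the platform annotation of 2018, which named 24705 probe sets.

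NICD-OE-HEC was compared with Control by lmFit and eBayes of limma 3.58.1 (R 4.3.3), without covariates or a filter. P-values are two-sided, with Benjamini-Hochberg adjustment across the 25428 probe sets. SE is limma's moderated error, except for paired values of 2 genes, where it is the unpooled error of the group means. Labels call the samples biological replicates, and their number limits the precision. On simulated data for this comparison, 54.5% of probe sets changed by log2 0.5 were recovered and 94.2% of those changed by 1. The simulation changed 55 probe sets by 0.5, 69 by 1 and 76 by 2, against 2666 called in the data. Its adjusted threshold was therefore stricter, and these shares are not the recovery of the real comparison.

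The factors and lists were chosen with earlier results of these data known. Of the listed genes, 9 are not analysed here. Named genes are the 5 factors, up to 4 called genes of each related list (2 of each marker list), and the 3 nearest patterns; others complete small counts and were chosen after their values were seen. Correlations of deviations between same-numbered arrays ran from -0.11 to 0.22, with 3 of 6 above 0.1. The numbers were not taken to pair the samples in the main fit. Hepatocyte marker means were highest on array 1 in both groups (7.25 in Control, 7.96 in NICD-OE-HEC), and so were macrophage means (8.93 and 9.36). Whether same-numbered arrays shared a preparation was not tested. Alternatives were other scalings, filters on dim probe sets, an intensity trend, array weights, the replicate block, each array left out, and marker means as covariates.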

Additional observations from a re-analysis of the deposited data

Results flagged for a closer look

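Tcf7l2 on control 4, at 6.63, was far above the nearest control (6.29), a gap of 0.648 of the group's range. Dkk2 on control 2, at 3.60, was likewise above the next control (3.29), with a gap of 0.712 of the range, both values lying below the array median. These were 2 of 116 groups of 6 arrays examined, where chance would mark about 1 in 20.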

How the results depend on the processing

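Gata4 and Tfec kept their direction and call in every fit made, and Tcf7l2 was never called. Over single arrays left out, Gata4 ranged from -0.69 to -0.61, Maf from -0.83 to -0.73, Tfec from -0.78 to -0.71, Meis2 from -0.51 to -0.43 and Tcf7l2 from 0.04 to 0.15, with 4 factors called lower and 0 higher each time. The replicate number as a block left all 4 calls (Gata4 adjusted p = 0.00160, Meis2 adjusted p = 0.00798), and 3 of 6 controls correlated best with their own number. With the block Tle4 (adjusted p = 0.0680) and Ctnnb1 (adjusted p = 0.0713) lost their calls, and more hepatocyte and macrophage markers were called higher (8 and 5, against 5 and 1). The array means of those marker lists were higher in NICD-OE-HEC for each of the 6 numbers. The exact permutation test gave p = 0.00216 for each of the 4, the smallest the arrays allow.

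The covariates cost calls. Maf was not called with the neutrophil mean (-0.75) or early-response mean (-0.46), nor Meis2 with the hepatocyte (-0.34), neutrophil (-0.29) or early-response (-0.50) mean, leaving 2 factors called lower with either of the latter. Calls over all probe sets with the hepatocyte, stellate, neutrophil and early-response means were 939, 788, 424 and 279 lower, and 710, 335 and 372 higher with the last 3, against 1422 and 1244, and 1090 to 1647 lower and 1017 to 1323 higher with an array left out. The early-response mean left 9 sinusoidal genes lower, 9 continuous genes higher and 0 continuous genes lower; each other marker mean left 1 continuous gene lower, and the neutrophil mean 0 sinusoidal genes higher. With an array left out these lists held 20 to 21 sinusoidal genes lower and 1 higher, and 1 to 2 continuous genes lower and 13 to 16 higher, the single one without control 4, control 6 or NICD-OE-HEC 1. With either the neutrophil or the early-response mean, the calls left were Gata4 in the GATA list, Tfec in its family and 0 in the MAF list in limma; the homeobox and TCF/LEF lists kept 1 higher call each with the neutrophil mean and 0 with the early-response mean. The cause was not tested.

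Between factors, chosen after seeing the data, values with an array left out ran from 0.08 to 0.21 for Gata4 against Maf, 0.04 to 0.12 for Gata4 against Tfec, -0.22 to -0.13 for Gata4 against Meis2 and -0.12 to 0.0067 for Maf against Tfec. They ran from -0.40 to -0.28 for Maf and -0.35 to -0.23 for Tfec against Meis2, and against Tcf7l2 from -0.79 to -0.68 (Gata4), -0.89 to -0.82 (Maf), -0.88 to -0.77 (Tfec) and -0.60 to -0.48 (Meis2). For 53 other named genes, 106 of 1324 alternative fits lost a call, 44 of them with the neutrophil or early-response mean, 3 gained a call, and 0 reversed a called gene. Signal near background limits Dkk2, Lef1, Gata1 and Gata5, and the Wnt read-out genes Lgr5, Notum, Tnfrsf19 and Wif1. Meis3, Nrl and Gata3, near the array median, share this limit in part.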
